A study of Mus musculus with 10 samples.

Results

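Genes of T cells and natural killer (NK) cells were measured by RNA sequencing in 10 mouse melanomas, 5 labelled Fes KO and 5 labelled Fes WT. The 36 genes were taken by symbol from a list of T and NK cell genes, out of 47643 genes in the count table. They were grouped by role into 11 pan T genes, 3 co-receptors, 10 cytotoxic genes, 5 NK receptors, 3 regulatory T cell genes and 4 genes of T cell exhaustion. The Fes KO tumours came from Fes-/- mice and the Fes WT tumours from Fes+/+ mice. Both carried a heterozygous Tyr::CreERT2 transgene, in which the melanocyte promoter of Tyr drives a Cre recombinase that 4-hydroxytamoxifen switches on, and a heterozygous activated Braf allele. Tumours of both groups were started with 5 mM 4-hydroxytamoxifen on the back skin, and the labels used here give no age. The Fes-/- genotype is written without a Cre-dependent mark, so as far as the labels show, the T and NK cells in these tumours lack Fes as the tumour cells do. The labels number the tumours but tie none to an animal of its own, and a p-value here therefore reflects only how these tumours vary.

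T cells recognise antigen through the T cell receptor, whose signal passes through the CD3 chains, with CD4 or CD8 as co-receptor. Cytotoxic T cells and NK cells kill by releasing perforin and granzymes, and NK cells decide through activating and inhibitory receptors on their surface. Regulatory T cells, marked by the transcription factor Foxp3, restrain other T cells. T cells that stay in contact with antigen carry inhibitory receptors such as PD-1, and blocking these is a treatment of melanoma.

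Total counts were 14290610 to 16566137 in Fes KO and 13226783 to 16599120 in Fes WT. Fes, the targeted gene, had 29.2 to 57.5 CPM (counts scaled to a common library size) in Fes KO, against 72.5 to 102 CPM in Fes WT, and the groups did not overlap (log2 fold change -1.06, adjusted p = 0.0846 in edgeR). Which part of Fes the allele removes is not given in the sources used here. Of 10 melanocyte markers, 8 were tested and none was at 0 in all tumours, with a summed level of 810 to 1039 CPM in Fes KO, against 521 to 869 CPM in Fes WT. Of these 8 markers 7 had a log2 fold change above 0, with a median of 3.24 over the 8, 4 were higher in Fes KO at an unadjusted p below 0.05 and 0 passed the adjusted threshold in edgeR. Of all tested genes, 47.6% had a log2 fold change below 0, 4.23% were higher at that unadjusted level and 0.175% passed. The part of the melanocyte marker difference in the T and NK cell values was not tested. Fes KO 2 stood apart by 10 keratinocyte markers, at 4987 CPM against at most 14.3 CPM in the other Fes KO tumours. Fes WT 3 stood apart by 10 skeletal muscle markers, at 15620 CPM against at most 415 CPM in the other Fes WT tumours. Xist was at 670.1 to 719.8 CPM in Fes KO 1, Fes KO 2 and Fes WT 5 and at most 0.678 CPM in the other tumours.

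T and NK cell genes were scarce in every tumour. The 36 genes together took 0.00205% to 0.0113% of all counts, and their summed level was 36.2 ± 14.1 CPM in Fes KO, against 74.5 ± 26.6 CPM in Fes WT (SD, n = 5 each). In 35 of the 36 genes the mean level was lower in Fes KO, and the NK receptor gene Klrb1c was the exception. Fes KO 3 had no count for 13 of the genes and Fes KO 5 for 9, while Fes WT 3 and Fes WT 5 had counts for all 36. A count of 0 in a tumour allows a level of up to 0.183 to 0.229 CPM, which is 3 counts over that tumour's library and covers counting error only. In bulk tumour RNA, fewer T and NK cells and less of these RNAs per cell cannot be told apart.

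**Figure D1:**
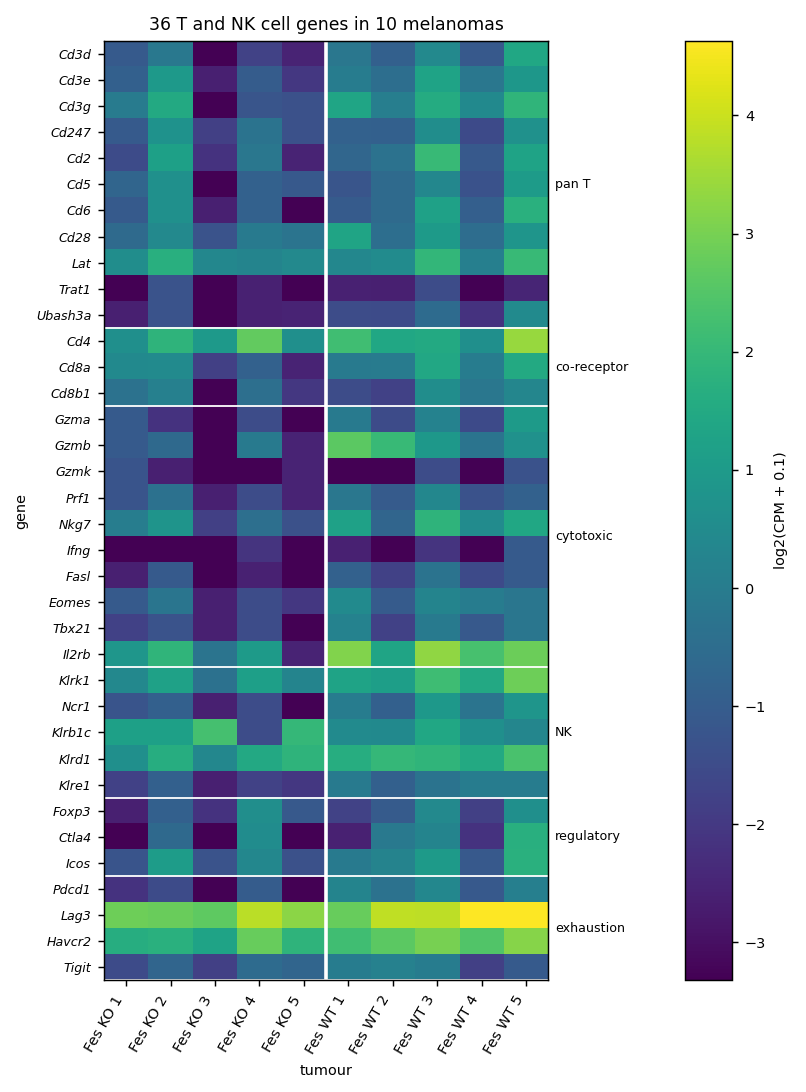
Level of each of the 36 genes (rows, grouped by role) in each tumour (columns, 5 Fes KO left and 5 Fes WT right), as log2(CPM + 0.1). The columns of Fes KO 3 and 5 are darkest, Fes KO 2 is the brightest Fes KO column for most T cell genes, and Lag3 is the brightest row.

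The question put to the counts was whether T and NK cell genes differ between Fes KO and Fes WT melanomas. Of the 36 genes, 18 passed the filter on low counts, which asks for enough counts in at least 5 tumours, and 18 did not. With edgeR's quasi-likelihood test, 0 of the 18 tested genes passed an adjusted p of 0.05, where 26 of 14816 genes (0.175%) did, 0.128% in the lower direction. Their adjusted p ranged from 0.313 for Gzmb to 0.848 for Cd8b1. At an unadjusted p below 0.05, 7 of the 18 were lower in Fes KO and 0 were higher, where 5.39% of all tested genes were lower at that level and 4.23% higher. DESeq2 called 1 of the 18, Gzmb, where it called 1.82% of tested genes, 1.2% in the lower direction. With limma-voom 0 passed and 14 had an unadjusted p below 0.05, and with limma on the deposited log2 values 0 passed and 9 did. The count of 7 was 14 of 22 tested genes without Fes KO 2, 11 of 22 without Fes WT 2 and 4 of 18 without Fes WT 5. It was 1 of 18 with the level of Ptprc, the general leukocyte gene, as a covariate. The shares of all tested genes at an unadjusted p below 0.05 are given for the main edgeR fit only. The counts from the other fits therefore have no yardstick here. Over the whole table limma-voom called 115 genes at an adjusted p below 0.05, where the main fit called 26.

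The log2 fold changes, Fes KO minus Fes WT, lay between -2.89 and 0.78 in the 18 tested genes, with a median of -1.04. They were below 0 in 17 of them, where 47.6% of all tested genes lay below 0 and the median of all was 0.01. All 18 genes under the filter had a lower mean level in Fes KO, 375 counts in all against 925 in Fes WT, where 51.0% of the 13680 genes under the filter had. The filter can keep a gene through its level in 1 group alone, so these counts describe the list and were not tested.

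**Figure D2:**
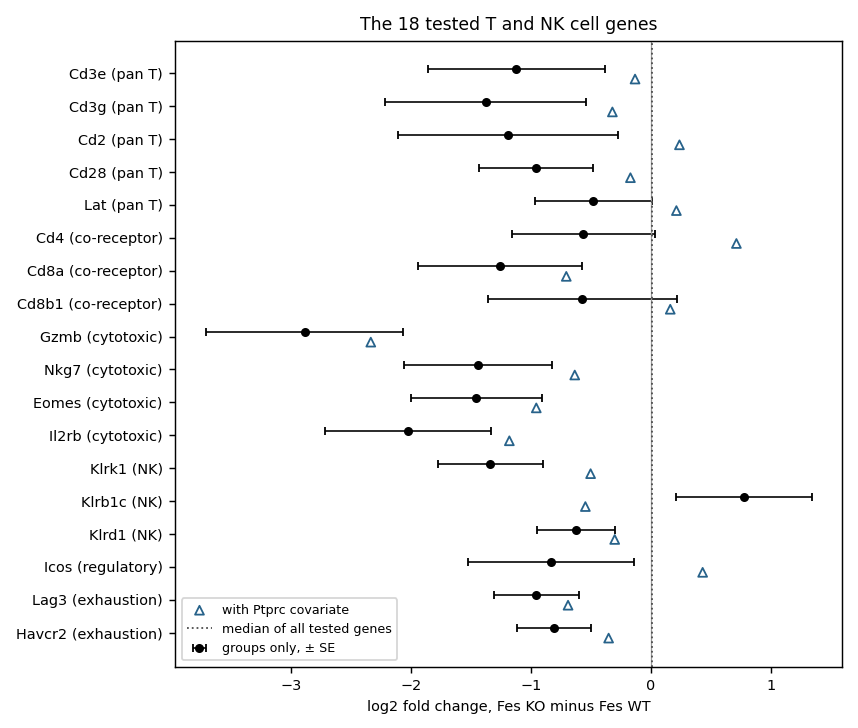
Log2 fold change of the 18 tested genes (x axis, Fes KO minus Fes WT), in the order of their roles from top to bottom. Filled circles with bars are the edgeR values ± SE, open triangles are the values with the level of Ptprc as a covariate, and the dotted line is the median of all tested genes at 0.01. Of the circles, 17 of 18 lie left of 0, with Gzmb lowest at -2.89.

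Of the 6 roles, the cytotoxic genes had the lowest log2 ratio of the group means. The 10 cytotoxic genes had 4.67, 8.11, 1.11, 4.64 and 0.729 CPM in Fes KO 1 to 5, against 21.5, 8.34, 20.5, 9.03 and 16.2 CPM in Fes WT 1 to 5. Every Fes KO tumour lay below every Fes WT tumour, although Fes KO 2 and Fes WT 2 nearly touched. This gap does not hold without Il2rb, or without Gzmb, where Fes KO 2 lies above a Fes WT tumour. Of 130 cytotoxic counts in Fes KO 2, 58 came from Il2rb and 9 from Gzmb. Fes WT 4 had 80 of 148 from Il2rb, and Fes WT 2 had 63 of 131 from Gzmb. Among single tested genes, 1.11% had every Fes KO tumour below every Fes WT tumour. The means of the cytotoxic sum were 3.85 ± 3.03 CPM in Fes KO, against 15.1 ± 6.19 CPM in Fes WT (SD, n = 5 each), a log2 ratio of -1.97.

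The 11 pan T genes had 5.23, 17.2, 1.91, 5.43 and 3.28 CPM in Fes KO, against 9.80, 6.62, 21.8, 5.49 and 24.1 CPM in Fes WT. These groups overlapped through 1 tumour, Fes KO 2, which lay above 3 of the Fes WT tumours. The log2 ratio of the means was -1.04 with all tumours, -1.77 without Fes KO 2 and -0.73 without Fes WT 5. Fes KO 2 was also the tumour with 4987 CPM of keratinocyte markers, whose part in its pan T level was not tested.

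Over all their genes, the other roles overlapped between the groups. NK receptors had a summed mean of 6.92 ± 1.50 CPM in Fes KO, against 10.8 ± 3.55 CPM in Fes WT, with a log2 ratio of -0.65. Klrb1c, whose counts are uncertain, decided this overlap. Without it, a trimming made after its values were seen, the NK sum was 1.97 to 6.11 CPM in Fes KO, against 6.81 to 14.9 CPM in Fes WT, with no overlap and a log2 ratio of -1.12. Regulatory genes had 1.69 ± 1.69 CPM in Fes KO, against 3.22 ± 2.90 CPM in Fes WT (SD, n = 5 each), with a log2 ratio of -0.93 that was -1.53 without Fes KO 4 and -0.30 without Fes WT 5. Exhaustion genes had 13.1 ± 5.08 CPM in Fes KO, against 25.1 ± 8.30 CPM in Fes WT, with a log2 ratio of -0.94. Most of these counts came from Lag3 (667 in Fes KO and 1272 in Fes WT) and Havcr2 (289 and 494). Pdcd1 gave 12 and 65 and Tigit 31 and 52. Co-receptors had 4.10 ± 2.53 CPM in Fes KO, against 6.73 ± 4.57 CPM in Fes WT, with a log2 ratio of -0.72. Most co-receptor counts came from Cd4, 228 in Fes KO and 314 in Fes WT, and without Cd4 the log2 ratio was -1.03. The sums carry no test, since the genes were chosen with earlier results known.

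**Figure D3:**
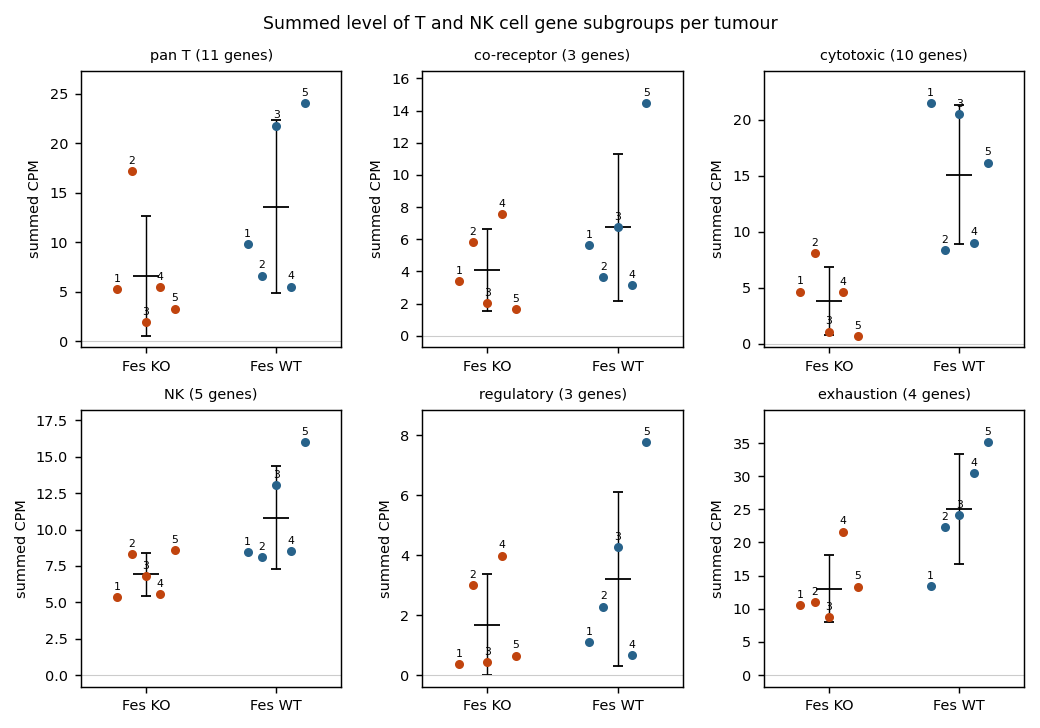
Summed level of each role in CPM (y axis, from 0) for the 5 Fes KO and the 5 Fes WT tumours. Each point is 1 tumour with its replicate number, and black bars show the mean ± SD. The cytotoxic sums do not overlap between the groups, at 0.729 to 8.11 CPM in Fes KO, against 8.34 to 21.5 CPM in Fes WT. That gap does not hold without Il2rb, or without Gzmb. The other 5 roles overlap. The NK sums would not overlap without Klrb1c, a trimming made after its values were seen.

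The mix of roles also varied between tumours. For each pan T count there were 0.892, 0.473, 0.581, 0.855 and 0.222 cytotoxic counts in Fes KO 1 to 5, against 2.19, 1.26, 0.940, 1.64 and 0.671 in Fes WT 1 to 5. Fes WT 5 lay among the Fes KO tumours on this scale, and the other Fes WT tumours lay above all of them. In Fes KO 5 this ratio rests on 10 cytotoxic and 45 pan T counts. For each pan T count there were 0.0723 to 0.735 regulatory counts in Fes KO and 0.113 to 0.346 in Fes WT, and Fes KO 4 gave the upper end. These ratios describe the tumours and were not tested.

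Among the CD3 chains, which carry the signal of the T cell receptor, 2 of 3 were tested. Cd3g had 0.883, 2.74, 0, 0.327 and 0.291 CPM in Fes KO, against 2.48, 0.955, 2.89, 1.28 and 3.58 CPM in Fes WT. Fes KO 2 lay among the Fes WT tumours, and the other Fes KO tumours lay below all of them. On the log2 scale the difference was -1.38 (SE 0.84, adjusted p = 0.619). Cd3e had 0.441, 1.87, 0.0616, 0.392 and 0.146 CPM in Fes KO, against 0.914, 0.636, 2.36, 0.793 and 1.75 CPM in Fes WT. It followed Cd3g, with Fes KO 2 the one Fes KO tumour inside the Fes WT range, and had a log2 difference of -1.12 (SE 0.74, adjusted p = 0.647). Without Fes KO 2 the log2 difference was -2.55 for Cd3g and -2.27 for Cd3e, with adjusted p of 0.232 and 0.198 in edgeR. Leaving out some of the other tumours moved it the other way. The weakest values were -1.05 for Cd3g without Fes KO 3 and -0.79 for Cd3e without Fes WT 3. Cd3d, under the filter, had 23 counts in Fes KO and 78 in Fes WT.

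Cd247, the zeta chain of the same complex, had 49 counts in Fes KO and 59 in Fes WT. Its exons overlap those of Pou2f1 on the other strand over 3007 bases, and the strand setting of the counting is not given, so its counts are uncertain. Cd3e shares 135 bases with an antisense gene and is uncertain to that extent.

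The co-receptor Cd8a, which marks cytotoxic T cells, had 1.26, 1.31, 0.185, 0.458 and 0.0729 CPM in Fes KO, against 0.849, 0.891, 2.62, 0.915 and 2.74 CPM in Fes WT. Of the Fes KO tumours, numbers 1 and 2 lay above 3 Fes WT tumours and the other Fes KO tumours below all of them. edgeR gave a log2 difference of -1.26 (SE 0.68, adjusted p = 0.589), and Cd8b1, the second CD8 chain, had -0.57 (SE 0.79, adjusted p = 0.848). Cd4, the co-receptor of helper and regulatory T cells, had 1.45, 3.49, 1.85, 6.47 and 1.46 CPM in Fes KO, against 4.51, 2.55, 2.76, 1.47 and 10.6 CPM in Fes WT. The Fes KO range lay almost inside the Fes WT range, and edgeR put Cd4 at -0.56 on the log2 scale (SE 0.60, adjusted p = 0.794) that was 0.065 without Fes WT 5.

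Of the adhesion and costimulatory genes, Cd28, the receptor of the second activating signal of T cells, had 0.568, 1.25, 0.308, 0.850 and 0.729 CPM in Fes KO, against 2.42, 0.636, 1.90, 0.610 and 1.68 CPM in Fes WT. In this gene 3 Fes KO tumours lay above the 2 lowest Fes WT tumours, and the log2 fold change was -0.96 (SE 0.48, adjusted p = 0.561). Cd2, an adhesion receptor of T and NK cells, had a log2 difference of -1.19 (SE 0.92) that was -2.33 without Fes KO 2 and -0.50 without Fes WT 3. Lat, a scaffold of receptor signalling that mast cells also express, had -0.48 (SE 0.49). Cd5 and Cd6, related surface receptors that tune T cell signals, were under the filter with 44 and 38 counts in Fes KO and 63 and 98 in Fes WT. Ubash3a, a suppressor of receptor signalling, had 8 counts in Fes KO and 36 in Fes WT, and Trat1, an adaptor of the receptor complex, had 6 in Fes KO and 7 in Fes WT.

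Gzmb, the granzyme that cleaves and activates caspases in target cells, had the lowest fold change of the list. It lies on chromosome 14 from 56258838 to 56262260 (GRCm38) and had 0.378, 0.561, 0, 0.850 and 0.0729 CPM in Fes KO, against 6.07, 4.01, 1.77, 0.732 and 1.52 CPM in Fes WT. Fes KO 4 lay above Fes WT 4, the lowest of the Fes WT tumours, and otherwise the groups were apart. In counts this is 29 in Fes KO and 215 in Fes WT, of which Fes WT 1 and Fes WT 2 gave 93 and 63. Its log2 difference was -2.89 (SE 0.82, unadjusted p = 0.00551, adjusted p = 0.313 in edgeR), and DESeq2 gave -2.92 with an adjusted p of 0.0381.

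The other granzymes of the list were under the filter. Gzma, a granzyme of another cleavage specificity, had 12 counts in Fes KO and 62 in Fes WT, and Gzmk had 7 in Fes KO and 8 in Fes WT. Prf1, the pore-forming perforin that lets granzymes into the target cell, had 22 counts in Fes KO and 47 in Fes WT. Fasl, the death ligand of killer cells, had 8 counts in Fes KO and 30 in Fes WT. Ifng, the interferon that activates macrophages and antigen presentation, had 2 counts in Fes KO and 8 in Fes WT.

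Nkg7, a protein of cytotoxic granules (chromosome 7, 43437073 to 43438249), had 0.946, 1.62, 0.185, 0.654 and 0.291 CPM in Fes KO, against 2.22, 0.509, 3.54, 1.34 and 2.59 CPM in Fes WT. Fes WT 2 lay below 3 of the Fes KO tumours, and Fes KO 2 lay above Fes WT 4 as well. On the log2 scale the difference was -1.45 (SE 0.62, adjusted p = 0.503).

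The promoters of Nkg7 and Gzmb are shown because both genes act in the same killing granule and T-box and Runx factors are known regulators of cytotoxic genes. RefSeq (GRCm38.p6) gave windows from 250 bases before to 50 bases after the start site for 27 of the 36 genes. Both strands were searched for the T-box letters TCACACC, the Runx letters ACCACA and the Ets letters CCGGAAG. The T-box letters were in 3 of these 27 genes, Nkg7, Gzmk and Trat1, and in 3.98% of all 32851 windows. The Runx letters were in 12 of the 27 genes (13 of 30 windows) and in 16.8% of all windows, and the Ets letters were in 0 of the 27 and in 8.86% of all windows. The Nkg7 window is chr7:43436888-43437187 on the plus strand, with the T-box match in capitals, 13 bases before the start site and read on the minus strand. This window also holds 1 Runx match, left in lower case, and GENCODE M21 starts Nkg7 upstream of the T-box match, which then lies within the gene. The Gzmb window is chr14:56262285-56262584 on the minus strand, with its 2 Runx matches in capitals, and it was chosen after the matches were seen. It lies just outside the Gzmb gene of GENCODE M21, whose start is given further downstream. No match shown overlaps a match to another motif searched. A match describes letters and not a bound site.
Nkg7: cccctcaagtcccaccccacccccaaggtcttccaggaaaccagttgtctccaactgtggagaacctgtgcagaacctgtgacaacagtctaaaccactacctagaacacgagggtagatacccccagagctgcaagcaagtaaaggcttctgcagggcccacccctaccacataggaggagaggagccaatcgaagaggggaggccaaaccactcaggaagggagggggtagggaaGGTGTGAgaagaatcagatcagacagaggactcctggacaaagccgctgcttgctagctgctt
Gzmb: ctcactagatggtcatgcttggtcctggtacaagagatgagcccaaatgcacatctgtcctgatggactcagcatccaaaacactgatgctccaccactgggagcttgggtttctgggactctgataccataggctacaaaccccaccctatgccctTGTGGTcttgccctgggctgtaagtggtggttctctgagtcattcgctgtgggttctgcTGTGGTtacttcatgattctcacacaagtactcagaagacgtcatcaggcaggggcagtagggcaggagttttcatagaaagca

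Il2rb, the receptor chain through which T and NK cells respond to IL-2 and IL-15, lies on chromosome 15 from 78479256 to 78495271. It had 1.70, 3.62, 0.740, 1.90 and 0.0729 CPM in Fes KO, against 8.69, 2.42, 9.84, 4.88 and 7.09 CPM in Fes WT. Fes KO 2 lay above Fes WT 2, and otherwise the groups were apart. The means were 1.61 ± 1.35 CPM in Fes KO, against 6.58 ± 2.98 CPM in Fes WT (SD, n = 5 each), and the log2 difference was -2.02 (SE 0.69), with an adjusted p of 0.392 in edgeR and 0.101 in DESeq2.

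Eomes and Tbx21 encode the T-box transcription factors of effector T cells and NK cells. Eomes had 0.378, 0.748, 0.0616, 0.262 and 0.146 CPM in Fes KO, against 1.31, 0.382, 1.12, 0.915 and 0.762 CPM in Fes WT. Of the Fes KO tumours, Fes KO 2 reached into the Fes WT range, above Fes WT 2, while Fes KO 1 lay just below it. edgeR gave a log2 difference of -1.46 (SE 0.54, adjusted p = 0.432), and it was -2.04 without Fes KO 2 and -1.19 without Fes KO 3. Tbx21, under the filter, had 13 counts in Fes KO and 48 in Fes WT.

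Among the NK receptors, Klrk1, which encodes NKG2D, the activating receptor for stress ligands, had 1.20, 2.25, 0.678, 2.16 and 1.09 CPM in Fes KO, against 2.35, 2.10, 4.40, 2.69 and 7.24 CPM in Fes WT. Only numbers 2 and 4 of the Fes KO tumours lay just above Fes WT 2, the lowest Fes WT tumour. Its log2 difference was -1.34 (SE 0.44, adjusted p = 0.369). Klrd1, which encodes CD94, the partner of NKG2 receptors, had 1.45, 2.99, 1.17, 2.68 and 3.50 CPM in Fes KO, against 3.00, 3.82, 3.61, 2.75 and 5.03 CPM in Fes WT. The groups overlapped in Fes KO 2 and Fes KO 5, and differed by a log2 value of -0.63 (SE 0.32, adjusted p = 0.572).

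Ncr1, which encodes the NK receptor NKp46, and Klre1, a lectin-like NK receptor gene, were under the filter but did not overlap between the groups. Ncr1 had 5, 7, 1, 4 and 0 counts in Fes KO, against 14, 7, 27, 12 and 22 in Fes WT. Klre1 had 3, 7, 1, 3 and 2 counts in Fes KO, against 13, 7, 11, 15 and 12 in Fes WT. The lowest Fes WT tumour and the highest Fes KO tumour had 7 counts each in both genes and were parted only by library size. Of genes under the filter, 0.387% had every Fes KO tumour below every Fes WT tumour. With no filter, edgeR put Klre1 at -1.86 on the log2 scale (SE 0.48, adjusted p = 0.391) and Ncr1 at -2.31 (SE 0.71, adjusted p = 0.540).

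Klrb1c, which encodes NK1.1, ran against the other NK receptors. It had 2.21, 2.18, 4.81, 0.262 and 3.86 CPM in Fes KO, against 1.31, 1.27, 2.56, 1.47 and 1.14 CPM in Fes WT. Its highest levels were in Fes KO 3 and Fes KO 5, the tumours with 1 and 0 counts of Ncr1, and its lowest level was in Fes KO 4. On the log2 scale the difference was 0.78 (SE 0.57, adjusted p = 0.678), and it was -0.55 with Ptprc as a covariate. Its exons share 413 bases with another annotated gene on the same strand and it belongs to a family of similar genes, so its counts are uncertain.

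The regulatory genes varied widely within both groups. Foxp3 had 1, 7, 2, 22 and 5 counts in Fes KO, against 3, 6, 19, 3 and 19 in Fes WT. Ctla4, an inhibitory receptor that regulatory T cells carry at high level, had 0, 9, 0, 21 and 0 counts in Fes KO, against 1, 13, 17, 2 and 41 in Fes WT. In both genes Fes KO 4, Fes WT 3 and Fes WT 5 were high and both groups spanned low and high tumours. Icos, a costimulatory receptor of activated T cells, had a log2 difference of -0.83 (SE 0.69, adjusted p = 0.726) that was -1.48 without Fes KO 2 and -0.35 without Fes WT 5. Foxp3 shares up to 853 exon bases with neighbouring genes, so its counts are uncertain.

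Lag3, an inhibitory receptor that binds MHC class II, had the highest mean counts of the list. It had 7.19, 6.98, 6.16, 13.9 and 9.33 CPM in Fes KO, against 6.86, 14.4, 14.2, 24.4 and 24.7 CPM in Fes WT. Fes WT 1 lay among the Fes KO tumours, and the other Fes WT tumours lay above all of them. edgeR gave a log2 difference of -0.96 (SE 0.36, adjusted p = 0.432). Havcr2, which encodes the inhibitory receptor TIM-3 of T cells and myeloid cells, had 3.03, 3.24, 2.34, 6.73 and 3.50 CPM in Fes KO, against 4.51, 6.11, 7.88, 5.49 and 9.07 CPM in Fes WT. Fes KO 4 was the only Fes KO tumour inside the Fes WT range, and the log2 fold change was -0.81 (SE 0.31, adjusted p = 0.448).

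Pdcd1, which encodes PD-1, had 2, 4, 0, 6 and 0 counts in Fes KO, against 17, 11, 18, 6 and 13 in Fes WT, so that only Fes KO 4 and Fes WT 4 met. Tigit, an inhibitory receptor of T and NK cells, had 31 counts in Fes KO and 52 in Fes WT. Both were under the filter, and with no filter edgeR gave log2 fold changes of -2.43 (SE 0.78, adjusted p = 0.570) for Pdcd1 and -0.75 (SE 0.53, adjusted p = 0.598) for Tigit.

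**Figure D4:**
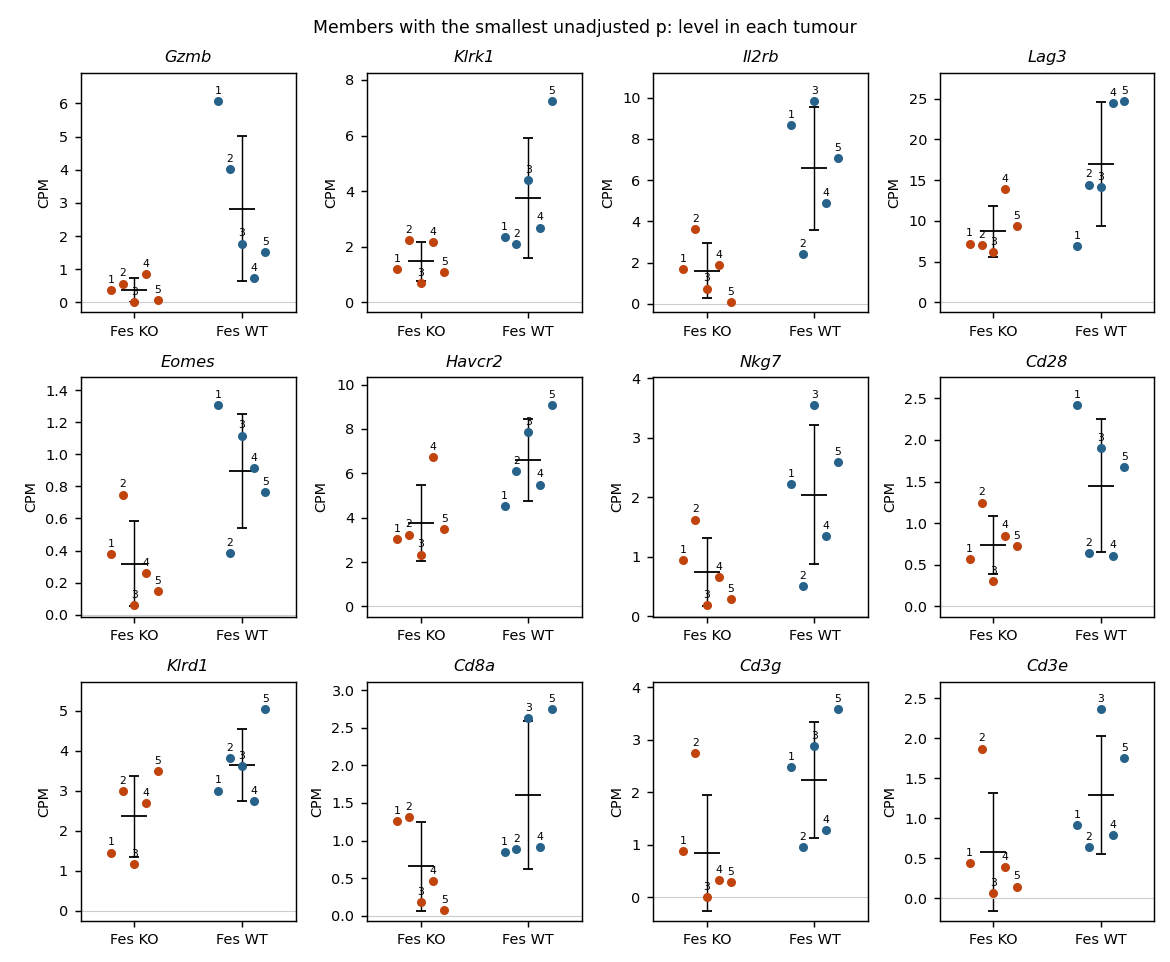
Level in CPM (y axis, from 0) of the 12 genes with the smallest unadjusted p, in each of the 5 Fes KO and 5 Fes WT tumours. Points carry the replicate number, and black bars show the mean ± SD. The groups overlap in all 12 genes, and none passed the adjusted threshold in edgeR.

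Per length, Lag3 was also the most abundant of the 36 genes. On the scale of CPM per kilobase of exon, Lag3 averaged 6.08 over the 10 tumours, Klrd1 2.34, Havcr2 1.91, Nkg7 1.52, Gzmb 1.11, Il2rb 0.955 and Cd4 0.908. Cd3g averaged 0.472, Cd3d 0.380 and Cd3e 0.230 on this scale, Foxp3 0.129 and Trat1 0.0181. Bulk counts do not say which cells hold Lag3, and its level was not tied to T cells here.

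Other T and NK cell genes gave a mixed picture. For scale, 0.175% of all tested genes passed in edgeR and 47.6% lay below 0. At an unadjusted p below 0.05, 5.39% of all tested genes were lower in Fes KO and 4.23% higher. Of 7 T cell receptor constant genes 3 were tested and 0 passed, with Trac at a log2 fold change of -0.94 (SE 0.49) and Trbc2 at -0.03 (SE 0.97), or -2.07 without Fes KO 2. Trbc2 had 6.24 CPM in Fes KO 2 and at most 0.694 CPM in the other Fes KO tumours, against 0.671 to 2.90 CPM in Fes WT. Of 22 genes of receptor signalling and T lineage 15 were tested and 0 passed in edgeR, 10 of them below 0, with a median of -0.49. At an unadjusted p below 0.05 in edgeR, 3 of the 15 were lower and 0 higher. Tcf7, a transcription factor of T cells and other lineages, was at 32.3 ± 10.4 CPM in Fes KO, against 27.7 ± 5.27 CPM in Fes WT, and Lcp2, a signalling adaptor of many leukocytes, had -0.49 (SE 0.27). Bcl11b and Gata3, which keratinocytes also express, were at 17.9 and 75.2 CPM in Fes KO 2 and at most 0.315 and 0.630 CPM in the other Fes KO tumours.

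Il2ra, named after its values were seen, did not overlap between the groups, which held in the lower direction for 1.11% of tested genes. This high-affinity IL-2 receptor chain of regulatory and activated T cells had 0.441, 1.68, 0.616, 1.83 and 0.948 CPM in Fes KO, against 2.09, 4.01, 2.89, 2.26 and 3.81 CPM in Fes WT. Its log2 fold change was -1.44 (SE 0.40, adjusted p = 0.304 in edgeR). DESeq2 gave Il2ra an adjusted p of 0.0478.

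The granzyme genes beside Gzmb were in the list of other NK and cytotoxic genes, of which 7 of 21 were tested, 5 of them below 0, and 0 passed in edgeR. At an unadjusted p below 0.05 in edgeR, 3 of the 7 were lower and 0 higher. Of all tested genes, 47.6% lay below 0, 5.39% were lower and 4.23% higher at that unadjusted level, and 0.175% passed. Gzmc had 0.504, 2.99, 0, 0.458 and 0 CPM in Fes KO, against 7.32, 3.82, 5.18, 2.93 and 1.37 CPM in Fes WT. Fes KO 2 lay above Fes WT 4 and Fes WT 5, and the log2 fold change was -2.36 (SE 1.01, adjusted p = 0.502). It was -4.04 without Fes KO 2 (adjusted p = 0.143 in edgeR) and -5.21 with limma-voom, which gave an adjusted p of 0.0381. Gzmf, named after its values were seen, had 0 counts in all 5 Fes KO tumours and 58, 14, 24, 5 and 0 counts in Fes WT. It was under the filter, and with no filter edgeR gave it an adjusted p of 0.446. Gzmm, also named after its values were seen, went the other way, at 1.23 CPM in Fes KO, against 1.10 CPM in Fes WT. Its log2 fold change was 0.16 (SE 0.30, adjusted p = 0.896 in edgeR). The granzymes are similar in sequence, so reads may be split among them. Itga2, an integrin that NK cells share with many other cells, was at 40.6 ± 16.97 CPM in Fes KO, against 31.5 ± 13.8 CPM in Fes WT.

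Of 16 genes of lymphocyte recruitment and cytokine signalling, which include receptors as well as ligands, 13 were tested and 0 passed in edgeR. Their log2 fold changes had a median of -0.79 and were below 0 in all 13, between -1.90 for Cxcl9 and -0.03 for Il12rb1, where 47.6% of all tested genes lay below 0. At an unadjusted p below 0.05 in edgeR, 2 of the 13 were lower and 0 higher, where 5.39% and 4.23% of all tested genes were. Under the filter, Ccl3 had a mean of 0.571 CPM in Fes KO, against 0.490 CPM in Fes WT. These 3 genes were named after their values were seen. Il15, the cytokine that keeps NK cells and memory T cells alive and signals through Il2rb, had 9.84, 9.29, 9.92, 11.4 and 10.2 CPM in Fes KO, against 23.6, 20.7, 9.32, 17.5 and 13.9 CPM in Fes WT. The Fes KO tumours lay close together, and the muscle-rich Fes WT 3 was the only Fes WT tumour among them. Its log2 difference was -0.75 (SE 0.22, adjusted p = 0.321).

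Ligands of the checkpoint and NKG2D receptors were mixed. Of 11 genes 9 were tested, 6 below 0, and 0 passed, with Lgals9, a proposed ligand of TIM-3, at -0.27 (SE 0.30) and Icosl, the ligand of ICOS, at -0.39 (SE 0.30). At an unadjusted p below 0.05 in edgeR, 0 of the 9 were lower and 1 was higher. Of all tested genes, 47.6% lay below 0, 5.39% were lower and 4.23% higher at that unadjusted level, and 0.175% passed. Of 10 genes of gamma-delta and innate-like T cells 3 were tested and 0 passed, with a median of 0.03. Sox13 was at 64.4 ± 14.7 CPM in Fes KO, against 63.1 ± 11.7 CPM in Fes WT, and Il1rl1 had -0.34 (SE 0.22). The median of 0.03 is the value of Sox13, whose level lay above the pan T sum, at most 24.1 CPM, in every tumour. Whether Sox13 comes from T cells here was not tested. Of the T cell receptor constant genes, the delta gene Trdc had -1.05 (SE 0.75, adjusted p = 0.672 in edgeR). Under the filter, Tcrg-C1 had 26 counts in Fes KO and 23 in Fes WT. Tcrg-C2 had 15 and 30 and Tcrg-C4 15 and 19. These constant genes were named after their values were seen.

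Neither Ptprc nor any of 12 macrophage markers passed the adjusted threshold in edgeR. Ptprc, which encodes CD45 on all leukocytes, had 22.1, 49.8, 24.7, 80.3 and 25.1 CPM in Fes KO, against 76.4, 47.1, 71.1, 50.8 and 105 CPM in Fes WT. Among Fes KO tumours, numbers 1, 3 and 5 lay below every Fes WT tumour, and number 4 lay above 4 of them. The log2 value for Ptprc was -0.79 (SE 0.39, adjusted p = 0.557). All 12 macrophage markers had log2 fold changes below 0, with a summed level of 1054 to 2278 CPM in Fes KO, against 1660 to 3650 CPM in Fes WT and none at 0. Their median was -0.78, and 6 of the 12 were lower at an unadjusted p below 0.05 in edgeR, where 5.39% of all tested genes were. The lowest adjusted p among them was 0.398, and 47.6% of all tested genes lay below 0. Summed B and plasma cell markers were at 18.5 to 108 CPM in Fes KO, against 36.2 to 86.7 CPM in Fes WT, with none at 0. Dendritic cell markers were at 73.0 to 154 CPM in Fes KO, against 73.9 to 114 CPM in Fes WT. Mast cell markers were at 75.9 to 320 CPM in Fes KO, against 102 to 260 CPM in Fes WT. Neutrophil markers were at 32.5 to 157 CPM in Fes KO, against 29.8 to 206 CPM in Fes WT. Of these 4 lists, 4, 10, 10 and 6 of 10 genes were tested and 0 passed. In the same order, 3, 8, 9 and 5 of the tested genes lay below 0, with medians of -0.79, -0.09, -0.315 and -1.13. At an unadjusted p below 0.05 in edgeR, 0, 1, 2 and 0 of them were lower.

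With the level of Ptprc as a covariate in edgeR, the median of the 18 tested genes was -0.34 in place of -1.04, and 13 of 18 lay below 0. Gzmb then had -2.34 (adjusted p = 0.580), Il2rb -1.18 (adjusted p = 0.805), Eomes -0.96 and Cd8a -0.71, while Cd3e had -0.13 and Cd3g -0.32. The directions of Cd2, Lat, Cd4, Cd8b1, Icos and Klrb1c turned. Ptprc is expressed by T and NK cells themselves, so this fit does not part them from other leukocytes, and the share of overall leukocyte content in the differences was not tested beyond it.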

How the data were processed

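The 36 genes, the gene lists and the alternatives were chosen with earlier results of these data known. The authors deposited raw counts per gene and, judged from the values, log2 values of counts divided by a size factor plus 1. Per the submitters' processing notes, the tools were Subread 1.4.6, STAR 2.51b and FastQC, with GRCm38 and mm10 as builds, while the strand setting is not given in the sources used here. Sample titles gave group and number, and columns were matched by sample description. The main test on the counts was edgeR 4.0.16 under R 4.3.3 (TMM, filterByExpr with the group and a minimum count of 10, quasi-likelihood, 2-sided, Benjamini-Hochberg over 14816 genes, threshold 0.05). CPM are counts over TMM-scaled library sizes. SE is the log2 fold change over the square root of F. Role sums add counts before scaling. Positions, exon lengths and overlaps are from GENCODE M21 (GRCm38), and promoters from RefSeq (GRCm38.p6). Named genes are all 36, with values in every tumour for the 12 of smallest unadjusted p. From the other lists up to 2 genes with the highest CPM are named, unless stated otherwise. Gene symbols matched for all 36, and 1 listed gene, Ncr3, was not matched. Alternatives used DESeq2 version 1.42.0 and limma version 3.58.1. The edgeR script was tested on simulated counts. No library pair was alike within sampling noise. A further allele of these mice and some genes of the lists are not reported here.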

Additional observations from a re-analysis of the deposited data

Results flagged for a closer look

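In 84 groups of 5 tumours (36 genes and 6 role sums, each group apart), 11 had 1 tumour far from the others by Dixon's test. Chance flags about 1 in 20 for normally distributed values. Many values here are counts near 0 and the sums reuse the genes, so that rate is no fair yardstick for the 11. Fes KO 2 was high in 6 of the 11, the sum of the pan T genes at 17.1 CPM where the other 4 had 1.91 to 5.43, Cd3e at 1.87 CPM against 0.0616 to 0.441, Lat at 3.12 CPM against 1.11 to 1.39, Fasl at 0.374 CPM against at most 0.0654, Trat1 at 0.312 CPM against at most 0.0654 and Ubash3a at 0.312 CPM against at most 0.0729. Fes KO 4 was high in Foxp3 at 1.44 CPM against 0.063 to 0.437, in Havcr2 at 6.73 CPM against 2.34 to 3.50, and in Ifng at 0.131 CPM against 0. Fes KO 1 was high in Gzmk at 0.315 CPM against at most 0.0729, and Fes WT 3 in Klrb1c at 2.56 CPM against 1.14 to 1.46. The values of Ifng, Gzmk, Trat1, Ubash3a and Fasl rest on 2, 5, 5, 5 and 6 counts in the tumour that stood apart.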

How the results depend on the processing

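The count of changed genes over the whole table, 26, was 270 with DESeq2, 115 with limma-voom, 12 with the stricter filter, 6 with Ptprc as a covariate, 94 with keratinocyte and muscle covariates, 64 without the 3 Xist-expressing tumours, 49 at an adjusted p below 0.1, and 10 to 54 with 1 tumour left out. The replicate block gave 4. Deviations of tumours of the same number had correlations of 0.172, -0.378, -0.213, -0.105 and 0.137 for numbers 1 to 5, so no pairing by number was seen. Whether tumours share a litter or day is not given by the labels and was not tested. The number of T and NK cell genes called was 0 in all alternatives but DESeq2, where it was 1 (Gzmb), and that of the other T and NK cell lists was 1 with DESeq2 (Il2ra) and 1 with limma-voom (Gzmc). With 1 tumour left out both were 0. Of 364 alternative values of the 18 tested genes, 356 kept their direction and 8 reversed. With the Ptprc covariate Cd2 had 0.24, Lat 0.21, Cd4 0.71, Cd8b1 0.16, Icos 0.43 and Klrb1c -0.55. Cd4 was 0.22 without the 3 Xist-expressing tumours and -1.08 to 0.065 with 1 tumour left out, above 0 only without Fes WT 5. The cause was not tested. Of the other genes, the Ptprc covariate turned Trbc2 (1.49), Lgals9 (0.25) and Sox13 (-0.17). Leaving out 1 tumour turned Trbc2 in some cases (-2.07 to 0.30) and likewise Sox13 (-0.092 to 0.14), leaving out the 3 Xist-expressing tumours turned Tcf7 (-0.050), Lgals9 (0.033) and Sox13 (-0.063), and Sox13 was -0.041 with limma-voom and -0.020 without Fes KO 2 and Fes WT 3, which was chosen after seeing the data. The log2 ratios of the role sums stayed below 0 in every alternative run and, with 1 tumour left out, were -1.77 to -0.73 for pan T, -1.06 to -0.23 for co-receptors, -2.44 to -1.71 for cytotoxic, -0.74 to -0.46 for NK, -1.53 to -0.30 for regulatory and -1.20 to -0.79 for exhaustion genes. Without Fes KO 2 and Fes WT 3 the median of the 15 tested genes was -1.12 with 14 below 0, and 5 had an unadjusted p below 0.05. The share of all tested genes at that level is not given for this fit. Under the filter on low counts lay 18 of the 36 genes, for which values rest on few counts.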
